A study of Homo sapiens with 12 samples.

Results

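Core proteins of the spliceosome, apart from the SF3B and SF3A complexes, were followed in MEC1 cells through the splicing of their own transcripts. The set held 32 genes of the 30275 gene names in the splicing table, chosen by name: the 7 Sm proteins, 3 U1 proteins, 5 U5 proteins, 3 U4/U6 proteins, 7 proteins of the PRP19 complex and its neighbours, 3 exon-ligation factors, and ZRSR2 and SMNDC1. SNRPA1 and SNRPB2 were also in the set, although both are proteins of the U2 particle. Of the 1632 table rows of these genes, 1477 had at least 20 reads in all 12 samples. A mean level between 1% and 99% over the samples, and the further filters described under the processing, left 312 tested events of 109093 in the whole table. They were 92 exons and 167 introns, with 29 alternative 3' splice sites and 24 at the 5' side. The 312 events lay in 31 genes, and no event of SNRPF was tested.

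MEC1 is an established human B cell line from chronic lymphocytic leukemia. SF3B1 is the U2 protein that helps to hold the branch point, and K700E is a recurrent amino acid change in it. Poly(A) RNA was sequenced from 4 groups of 3 samples: WT with DMSO, WT with H3B-8800, K700E with DMSO and K700E with H3B-8800. The splicing modulator H3B-8800, which targets SF3B, was given at 75 nM for 6 h, and DMSO was the vehicle. WT replicates 1 and 2 were the cultures labelled a and b, and WT replicate 3 was clone 34b, labelled as WT with the base change c.2106G>A. The K700E replicates were the clones 41, 38 and 15b, which carried c.2098A>G and c.2106G>A. Each culture or clone was given both treatments, so genotype was compared between few clones, and clone and genotype cannot be told apart. The p-values measure the spread between these cultures and clones.

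Reads over annotated exon junctions came to between 45840233 and 56676172 per sample, and the median tested event had 171 to 303 reads in a sample. Unspliced reads made up 1.86% to 2.43% of junction reads in DMSO and 4.50% to 6.05% in H3B-8800. All 8 B cell markers were read, with a sum of 3738 to 7078 RPM (spliced reads scaled to 1e+06 per sample), while T and NK cell markers summed to 0.55 to 1.86 RPM, with CD3G at 0. Myeloid markers summed to 0.39 to 1.69 RPM and fibroblast and epithelial markers to 11.3 to 19.99 RPM.

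The spliceosome is assembled anew on each intron. U1 binds the 5' splice site and U2 the branch point, and the U4/U6.U5 tri-snRNP then joins. Helicases unwind U4 from U6, the PRP19 complex stabilises the active site, and a last set of proteins guides the ligation of the exons. The Sm proteins form the ring around the U1, U2, U4 and U5 RNAs. The genes of this machinery contain introns themselves, so their transcripts pass through the particle that they encode.

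An event was called when limma gave an adjusted p (Benjamini-Hochberg, over all 109093 events) under 0.05 and the group means differed by at least 10 percentage points. H3B-8800 changed 69 of the 312 events in WT, in a table where 32.0% of all events were called. The calls were 27 exons with lower inclusion, 39 introns with higher retention, 2 alternative 3' sites and 1 at a 5' side. In K700E, 73 events were called, where the whole table had 31.3%. These were 27 exons with lower inclusion, 41 introns with higher retention, 4 alternative 3' sites and 1 at a 5' side. In all 69 and all 73 events the H3B-8800 samples did not overlap the DMSO samples. With 3 samples a group a call makes this likely, so the lack of overlap is no separate support for the called events. The calls coincided in 60 events, with the same direction in all 60, while 9 were called in WT only and 13 in K700E only. Whether an effect differs between the genotypes was tested separately, as given further on.

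By class, the 27 of 92 exons called lower compared with 40.3% of all tested exons in WT and 38.5% in K700E. The 39 and 41 of 167 introns called higher compared with 31.9% and 31.6%. Alternative 3' sites were called in 9.24% (WT) and 12.2% (K700E) of the table, and alternative 5' sites in 7.06% and 5.59%. A called event was found in 16 of the 31 tested genes in WT and 17 in K700E, against 75.5% and 75.3% of all genes with a tested event. The median difference of the tested exons was -4.25 points in WT and -4.11 points in K700E, against -6.88 and -6.47 points for all exons. The introns had medians of 4.34 and 4.41 points, against 4.92 and 5.02. The shares and medians of these genes thus lay below those of the whole table in the exons and introns of both genotypes, which is a description and not a test.

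**Figure D1:**
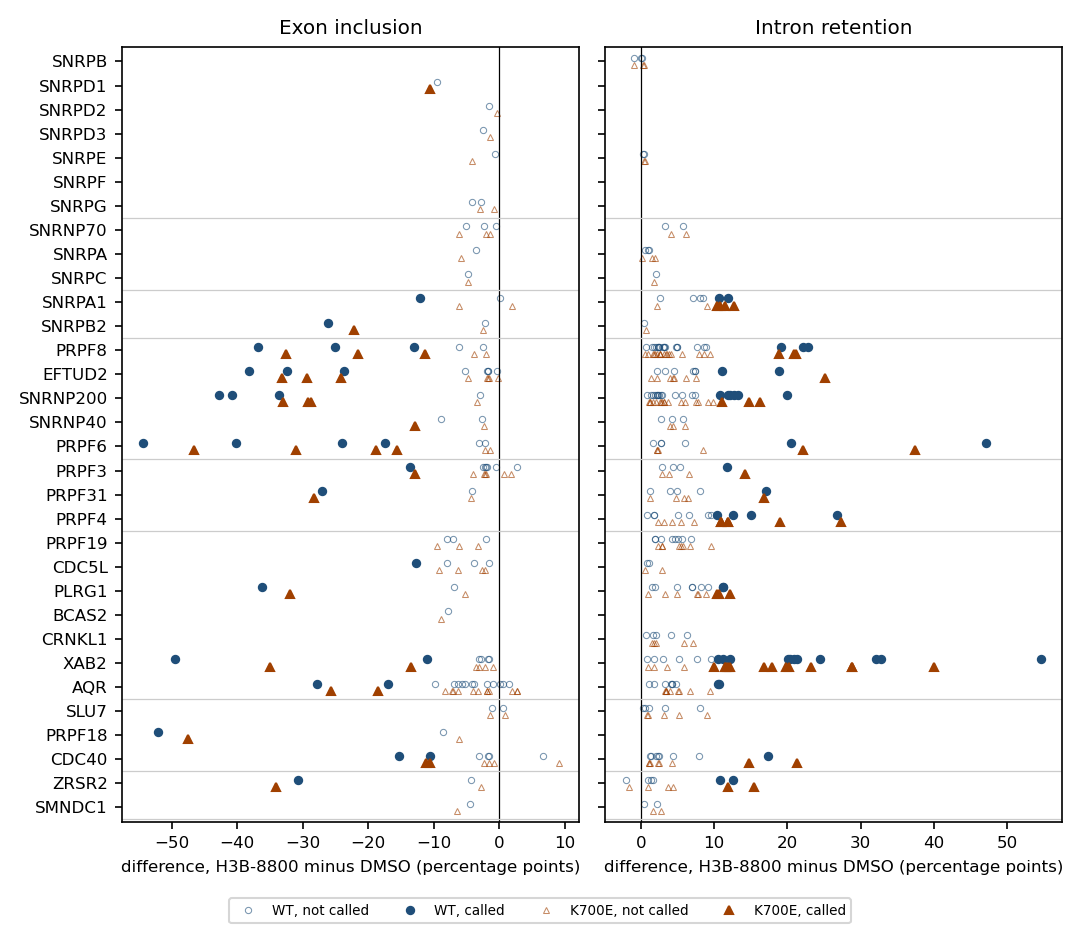
Difference in exon inclusion (left) and intron retention (right), H3B-8800 minus DMSO in percentage points, for each tested event of the 32 genes, in WT (circles) and K700E (triangles), with genes ordered by role. Filled symbols are called events, and the largest differences lie in PRPF6, PRPF18, XAB2, SNRNP200, EFTUD2 and PRPF8, while the Sm and U1 genes have 1 filled symbol, SNRPD1 in K700E.

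The calls were unevenly spread over the particles, which is a description and not a test. In the whole table, 40.3% of exons were called lower and 31.9% of introns higher in WT, and 38.5% and 31.6% in K700E. The Sm genes had none of 6 exons and none of 5 introns called in WT, and the U1 genes none of 5 exons and none of 6 introns. The 5 U5 genes had 13 of 25 exons and 13 of 58 introns called in WT, and 14 exons and 9 introns in K700E. The PRP19-related genes had 6 of 30 exons and 15 of 50 introns in WT, of which XAB2 alone gave 11 introns. The U4/U6 genes had 2 of 9 exons and 6 of 20 introns, and the exon-ligation factors 3 of 10 exons and 1 of 13 introns. The Sm genes hold few introns, from 2 in SNRPD2 to 6 in SNRPB, while PRPF8 has 42 and SNRNP200 has 44, so the numbers of tested events per gene differ as well.

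Among the U5 genes, PRPF6, which bridges U5 to U4/U6 in the tri-snRNP, had the largest fall of an exon. Exon 15 of 21, of 120 nt at chr20:64025939-64026058 (hg38), was included at 93.5%, 95.6% and 92.3% in the 3 WT DMSO samples and at 38.5%, 40.5% and 39.3% in H3B-8800. The K700E samples had 94.1%, 94.5% and 92.5% in DMSO and 45.0%, 45.9% and 50.3% in H3B-8800. Inclusion was thus high in every DMSO sample and near or under 50% in every H3B-8800 sample, without overlap (limma, Benjamini-Hochberg adjusted p = 3.33e-08 in WT and 8.45e-08 in K700E). The exon length is a multiple of 3, so skipping it removes 40 codons and keeps the reading frame. The neighbouring exon 14, of 139 nt, fell from 96.7%, 97.6% and 97.1% to 53.9%, 58.6% and 58.5% in WT and is not a multiple of 3.

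PRPF18, a factor of exon ligation, had the next largest fall. Its exon 7, of 141 nt at chr10:13613741-13613881, had 84.8%, 88.6% and 85.3% in WT DMSO and 33.7%, 33.9% and 34.9% in WT H3B-8800. In K700E it had 88.3%, 92.6% and 89.2% in DMSO and 43.0%, 43.5% and 41.2% in H3B-8800. All H3B-8800 samples lay below all DMSO samples (limma, adjusted p = 2.35e-07 and 2.61e-07), and the length again keeps the frame, with 47 codons removed. The exons of PRPF6 and PRPF18 are printed here because they carried the 2 largest losses among the 92 exons, from GENCODE transcripts.
PRPF6 exon 15: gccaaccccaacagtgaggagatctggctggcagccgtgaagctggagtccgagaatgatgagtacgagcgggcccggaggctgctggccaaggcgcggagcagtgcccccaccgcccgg
PRPF18 exon 7: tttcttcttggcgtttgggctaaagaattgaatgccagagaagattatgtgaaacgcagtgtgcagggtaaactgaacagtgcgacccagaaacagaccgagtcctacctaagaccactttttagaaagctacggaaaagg
They differ in base composition, with 68.3% G and C in PRPF6 and 44.7% in PRPF18.

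SNRNP200 is the helicase that unwinds U4 from U6. Its exon 36, of 109 nt at chr2:96279451-96279559, had 99.3%, 99.7% and 99.5% in WT DMSO and 59.3%, 57.3% and 53.3% in WT H3B-8800, and in K700E it went from 99.4%, 99.3% and 99.6% to 63.1%, 68.5% and 67.6%. The adjacent exon 35, also of 109 nt, had WT means of 99.7% in DMSO and 59.0% in H3B-8800, and K700E means of 99.8% and 71.2%. Both exons were near full inclusion in DMSO and well below it in every H3B-8800 sample (limma, adjusted p at most 1.14e-07). Skipping exon 36 alone shifts the frame, with a stop at codon 1688 of 2136.

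PRPF8, the large protein at the centre of the active site, had 99.5%, 99.7% and 99.7% inclusion of exon 28 in WT DMSO and 63.3%, 64.0% and 61.0% in WT H3B-8800. In K700E the exon had 99.1%, 99.7% and 99.7% and then 62.9%, 69.1% and 69.0%. Inclusion fell by 36.9 points in WT and by 32.5 points in K700E, without overlap (limma, adjusted p = 2.55e-08 and 5.14e-08). The exon has 170 nt (chr17:1660993-1661162) and its loss gives a stop at codon 1453 of 2335.

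EFTUD2, the GTPase of U5, lost inclusion in 3 of 8 tested exons. Exon 25, of 95 nt at chr17:44853296-44853390, went from 91.6%, 94.0% and 94.0% to 58.8%, 53.6% and 52.5% in WT. In K700E it went from 92.6%, 91.1% and 91.5% to 61.3%, 64.0% and 61.7%. The groups were apart in both genotypes (limma, adjusted p = 9.15e-08 and 6.16e-07). Exon 11 fell by 23.7 points and exon 12 fell by 32.5 points in WT. SNRNP40, the WD-repeat protein of U5, had its exon 8 called in K700E only, where inclusion fell by 12.8 points, and the difference was -8.84 points in WT.

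In the PRP19-related group, XAB2, a repeat-built scaffold protein, had the largest exon change. Its exon 15, of 123 nt at chr19:7620547-7620669, had 99.6%, 99.2% and 98.96% in WT DMSO and 46.5%, 47.0% and 55.7% in WT H3B-8800. The K700E samples had 99.6%, 100% and 98.8% and then 70.8%, 63.2% and 59.4%. The H3B-8800 samples of K700E all lay above those of WT, and the effects differed by 14.5 points. This difference did not pass on the percentage-point scale (limma, adjusted p = 0.158), and on the logit scale it was -0.11, of the opposite sign (limma, adjusted p = 0.992). The exon keeps the frame and codes for 41 codons. PLRG1, the WD-repeat partner of CDC5L, had 89.8%, 92.1% and 92.3% inclusion of exon 14 in WT DMSO and 52.1%, 58.0% and 55.5% in H3B-8800. AQR, a helicase that binds the intron, had exon 12 fall from 99.6%, 100% and 100% to 68.7%, 73.1% and 74.4% in WT, and its exon 16 fell by 17.0 points. CDC5L exon 12 was included at 100% in all 3 WT DMSO samples and at 84.2%, 88.2% and 89.5% in H3B-8800. In K700E the PLRG1 exon fell by 31.9 points and AQR exon 12 fell by 25.7 points, while CDC5L exon 12 differed by -9.21 points, under the size needed for a call. The H3B-8800 samples of PLRG1, AQR and CDC5L were lower than the DMSO samples in both genotypes.

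Smaller particles and factors gave the remaining calls. PRPF31, which binds the U4 RNA, had 99.2%, 99.4% and 98.6% inclusion of the 73-nt exon 11 in WT DMSO and 77.9%, 70.2% and 67.7% in H3B-8800. Loss of that exon gives a stop at codon 388 of 499. SNRPB2 exon 5, of 51 nt, went from 98.5%, 98.9% and 98.9% to 74.3%, 71.7% and 72.0% in WT. ZRSR2, which recognises the 3' splice site of minor introns, had 99.1%, 97.1% and 96.3% of its 39-nt exon 6 in WT DMSO and 61.1%, 72.4% and 67.1% in H3B-8800, from 118 to 178 reads a sample. CDC40, an exon-ligation factor, had an exon 3 that fell by 15.2 points in WT, and PRPF3 exon 13 fell by 13.6 points. In K700E the PRPF31 exon fell by 28.3 points, the SNRPB2 exon fell by 22.1 points and the ZRSR2 exon fell by 34.05 points. No sample of one treatment crossed into the range of the other in these exons.

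Of the 27 exons called in WT, 9 (33.3%) were a multiple of 3 nt long, against 37.3% of all exons called in WT. Of the 27, 23 were coding exons of the gene's principal transcript, and the removal of 13 of these on their own put a stop codon earlier in the reading frame. Such stops were not counted for exons that were not called, so the count does not set the called exons apart. The called exons had a median length of 109 nt and the other 65 a median of 104 nt. Both sets started from about the same inclusion, with medians of 99.2% and 99.3% in WT DMSO.

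**Figure D2:**
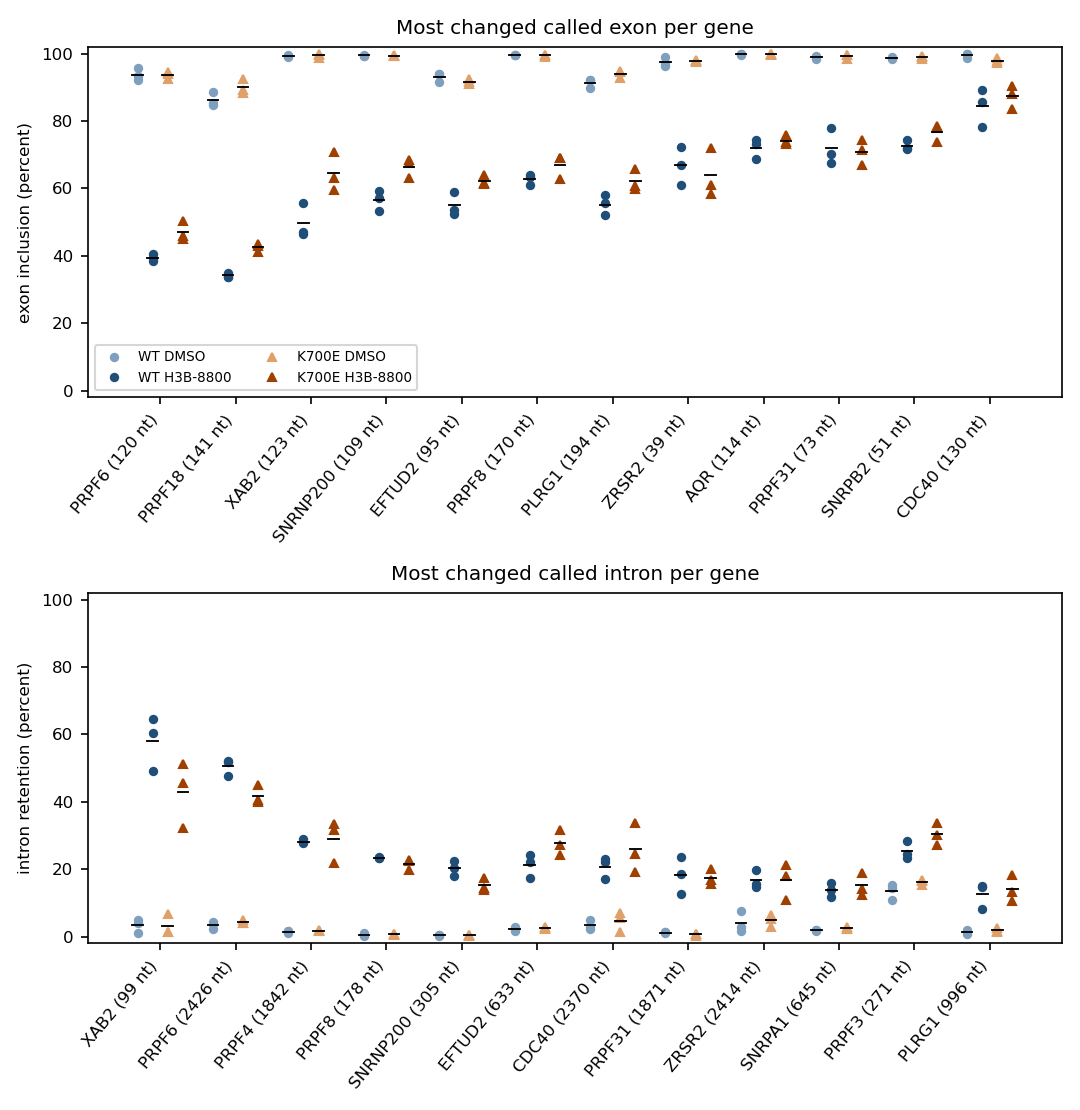
Level in every sample (percent) of the most changed called exon (top) and intron (bottom) of 12 genes each, with a bar at the mean of 3 samples. Light symbols are DMSO and dark symbols H3B-8800, circles WT and triangles K700E. In each gene the light and dark symbols of a genotype do not overlap, which was required for WT in choosing the events.

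Sequence before the 3' splice site was available for 20 of the member exons, in GENCODE transcripts that hold at least the end of the upstream intron within an exon. Shown here are 40 intron bases, the AG that ends the intron in capitals, and 3 exon bases. The first 6 such exons are those with the largest fall in WT, with 1 exon per gene. They can be read against those with the smallest change, also with 1 exon per gene.
SNRNP200 exon 36: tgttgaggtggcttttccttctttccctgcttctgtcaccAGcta
PRPF8 exon 28: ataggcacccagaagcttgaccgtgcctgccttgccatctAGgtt
PLRG1 exon 14: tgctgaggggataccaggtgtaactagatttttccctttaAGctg
EFTUD2 exon 12: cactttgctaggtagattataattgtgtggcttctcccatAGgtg
PRPF31 exon 11: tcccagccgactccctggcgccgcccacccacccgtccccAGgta
PRPF3 exon 13: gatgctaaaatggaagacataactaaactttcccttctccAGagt
The 6 with the smallest change, between -1.49 points in XAB2 and -4.77 points in SNRPC, were these.
XAB2, 124-nt exon: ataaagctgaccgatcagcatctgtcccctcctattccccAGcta
EFTUD2, 194-nt exon: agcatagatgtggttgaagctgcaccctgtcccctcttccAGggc
PRPF19, 171-nt exon: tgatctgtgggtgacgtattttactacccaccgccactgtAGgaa
PRPF3, 147-nt exon: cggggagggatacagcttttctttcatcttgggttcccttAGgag
AQR, 86-nt exon: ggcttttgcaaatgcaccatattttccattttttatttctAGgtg
SNRPC, 43-nt exon: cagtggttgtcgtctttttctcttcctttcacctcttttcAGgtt
The share of C and T in the 40 intron bases before the AG had a median of 58.8% in the first 6 and 62.5% in the other 6, with ranges of 52.5% to 75.0% and 60.0% to 82.5%. The ranges overlap, and these exons were picked from the 20 as extremes, with 1 exon per gene in each set. Among all 20, the 8 called in WT had a median of 63.8% and the 12 not called 65.0%. In the whole table the 2475 exons called lower and the 2734 not called both had a median of 65.0%.

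Intron retention rose most in XAB2 and PRPF6. The share of unspliced reads in the whole library was also higher in every H3B-8800 sample, as given at the start, and its part in single introns was not tested. XAB2 intron 18, the last one, of 99 nt at chr19:7619648-7619746, was retained at 1.12%, 4.08% and 4.88% in WT DMSO and at 60.3%, 49.0% and 64.6% in WT H3B-8800. In K700E it had 6.67%, 1.24% and 1.33% in DMSO and 32.3%, 45.7% and 51.1% in H3B-8800. The groups were far apart (limma, adjusted p = 1.17e-05 and 4.49e-05), but the intron had only 32 to 83 reads a sample. PRPF6 intron 19, of 2426 nt, had 2.29%, 3.75% and 4.24% in WT DMSO and 52.0%, 47.6% and 51.9% in H3B-8800, with 872 to 1371 reads. In K700E it had 5.04%, 3.90% and 4.09% and then 44.9%, 40.5% and 39.99%. Every H3B-8800 sample thus lay far above every DMSO sample for this long intron (limma, adjusted p = 3.14e-08 and 1.42e-07).

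XAB2 had 17 of its 18 introns tested, and 11 were called in WT and 13 in K700E. Intron 2 rose by 32.8 points and intron 5 by 32.2 points in WT, and introns 1, 4, 10, 16 and 17 by 20.1 to 24.4 points. Introns 11, 12 and 13 stayed low, at means of 3.26%, 3.06% and 1.68% in WT H3B-8800, with none of them called. Length and difference over the 17 introns had a rank correlation of -0.15, given as a description. Printed here, from GENCODE transcripts that retain them, are 3 short introns of XAB2 that were called and 1 of like length that was not, with the terminal GT and AG in capitals.
XAB2 intron 18: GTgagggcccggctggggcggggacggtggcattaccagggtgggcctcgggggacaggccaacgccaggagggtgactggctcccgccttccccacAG
XAB2 intron 5: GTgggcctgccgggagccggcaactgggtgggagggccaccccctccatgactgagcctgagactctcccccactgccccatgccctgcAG
XAB2 intron 15: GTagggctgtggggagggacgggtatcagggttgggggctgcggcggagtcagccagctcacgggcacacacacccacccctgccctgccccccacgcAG
XAB2 intron 13: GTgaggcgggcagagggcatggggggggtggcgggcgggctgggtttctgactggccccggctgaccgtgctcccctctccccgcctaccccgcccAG
Introns 18, 5 and 15 have 73.7%, 71.4% and 72.0% G and C, and intron 13 has 76.5%. Intron 13, chosen after its values were seen, went from 0.80% ± 0.18 (SD, n = 3) to 1.68% ± 0.19 in WT, while intron 15 went from 3.37% ± 0.72 to 13.9% ± 1.99.

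**Figure D3:**
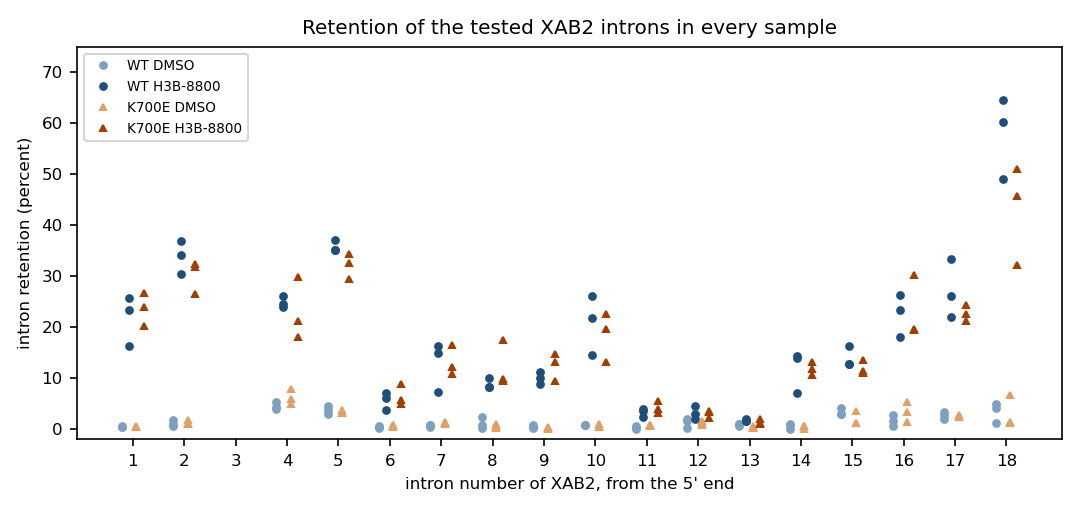
Retention (percent) of the 17 tested XAB2 introns in each of the 12 samples, by intron number from the 5' end, with light symbols for DMSO and dark ones for H3B-8800. Introns 1, 2, 4, 5 and 16 to 18 rise well above DMSO, while introns 11 to 13 remain under 6% in every sample.

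Other introns of tri-snRNP genes rose by less. PRPF4, which sits on U4/U6, had 1.17%, 1.58% and 1.49% retention of intron 7 in WT DMSO and 27.9%, 28.8% and 27.7% in H3B-8800. PRPF8 intron 22 had 0.44%, 0.21% and 0.94% and then 23.2%, 23.4% and 23.5%. SNRNP200 intron 25 had 0.27%, 0.42% and 0.54% and then 18.0%, 20.5% and 22.5%. These 3 introns were near 0 in DMSO and close together within each H3B-8800 group (limma, adjusted p at most 1.15e-07 in WT). EFTUD2 intron 23 rose by 18.9 points in WT and 25.1 in K700E, CDC40 intron 9 by 17.4 and 21.3, and PRPF31 intron 8 by 17.1 and 16.9. PRPF3 intron 13 started from higher levels, 10.8%, 15.4% and 14.5% in WT DMSO, and reached 23.2%, 24.4% and 28.4%. ZRSR2, SNRPA1, PLRG1 and AQR each had 2 introns called in WT, with rises of 10.5 to 12.6 points. In K700E, ZRSR2 had 2 introns called, SNRPA1 4, PLRG1 3 and AQR 0. Called member introns had a median length of 677 nt and the others 639.5 nt, whereas in the whole table called introns had 507 nt and the others 1312 nt.

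Reads of exon skipping, retention and site choice are not independent where events share sequence. PRPF31 used an alternative 3' site 28 nt before its usual one at 1.52%, 1.46% and 1.16% in WT DMSO and at 19.6%, 27.2% and 32.5% in H3B-8800, and in K700E it went from 0.87%, 1.47% and 0.62% to 28.4%, 21.2% and 20.4%. The site was rare in every DMSO sample and was above 19% in every H3B-8800 sample (limma, adjusted p = 5.29e-07 and 3.94e-07). The 28 bases, chr19:54126500-54126527, are the end of PRPF31 intron 8, described above. PRPF4 likewise used a site 39 nt upstream, at the end of its intron 7, at 0.61%, 1.23% and 1.22% in WT DMSO and 26.3%, 30.1% and 24.6% in H3B-8800. AQR used a 5' site 70 nt away at 1.76%, 1.97% and 2.77% and then 15.3%, 17.0% and 19.3%. In K700E, an 83-nt stretch of PRPF6 was the only called alternative 3' site of these genes whose use was lower, and it fell by 11.1 points.

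Several exons of these genes were included at low levels already in DMSO. SNRNP70, the U1 protein that binds the U1 RNA loop, has a 60-nt exon at chr19:49102114-49102173 that was included at 5.96%, 6.92% and 9.57% in WT DMSO and at 2.13%, 2.29% and 2.98% in H3B-8800. In K700E it had 14.6%, 11.7% and 9.09% and then 6.65%, 5.21% and 4.88%. The groups did not overlap and the adjusted p was 0.000113 in WT and 0.00167 in K700E (limma), but the difference was under 10 points. A 121-nt exon of PRPF18 (chr10:13591768-13591888) went from 11.7%, 13.9% and 11.5% to 2.83%, 4.95% and 3.28% in WT, also under 10 points (limma, adjusted p = 0.000172). SNRPA1 had a 109-nt exon (chr15:101289814-101289922) at 10.0%, 15.1% and 12.4% in WT DMSO and 0.54%, 0.23% and 0.34% in H3B-8800, which was called, and at 7.76%, 5.26% and 5.62% and then 0%, 0.26% and 0% in K700E. It had 50 to 232 reads, so the upper levels are imprecise.

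SNRPB, which codes for the Sm proteins B and B', has a 124-nt exon (chr20:2467192-2467315) that was not tested because its mean level was under 1% and is named here after its values were seen. It stood at 1.04%, 0.93% and 1.03% in WT DMSO and at 0.06%, 0.04% and 0.05% in H3B-8800, from 8476 to 13655 reads a sample. The groups did not overlap. The 96-nt PRPF3 exon, at means of 10.8% and 13.5% in WT DMSO and H3B-8800, did not pass the test (limma, adjusted p = 0.139), nor did the 41-nt SNRPE exon, at 78.9% and 78.3% (limma, adjusted p = 0.830). The exons of SNRPB, SNRNP70 and PRPF18 are printed with the stop codon that is in frame with the upstream coding exons in capitals, since a transcript that includes them carries that stop. No in-frame stop was found in the 109 bases of the SNRPA1 exon.
SNRPB, 124-nt exon: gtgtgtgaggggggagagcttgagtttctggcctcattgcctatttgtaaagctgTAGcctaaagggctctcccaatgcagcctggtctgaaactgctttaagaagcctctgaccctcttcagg
SNRNP70, 60-nt exon: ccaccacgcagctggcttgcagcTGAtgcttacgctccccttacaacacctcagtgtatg
PRPF18, 121-nt exon: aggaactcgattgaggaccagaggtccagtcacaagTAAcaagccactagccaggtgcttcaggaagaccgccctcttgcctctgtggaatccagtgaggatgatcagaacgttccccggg
The stop begins at base 56 of the SNRPB exon, base 24 of the SNRNP70 exon and base 37 of the PRPF18 exon. Other rare exons also held in-frame stops, so the direction of those printed does not stand for all. The 96-nt PRPF3 exon has a stop at base 61. An 88-nt PRPF19 exon has one at base 12 and a 29-nt SNRPG exon at base 20, both too rare to be tested. The PRPF19 exon had means of 0.88% in WT DMSO and 1.43% in WT H3B-8800, and the SNRPG exon 1.21% and 0.13%.

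**Figure D4:**
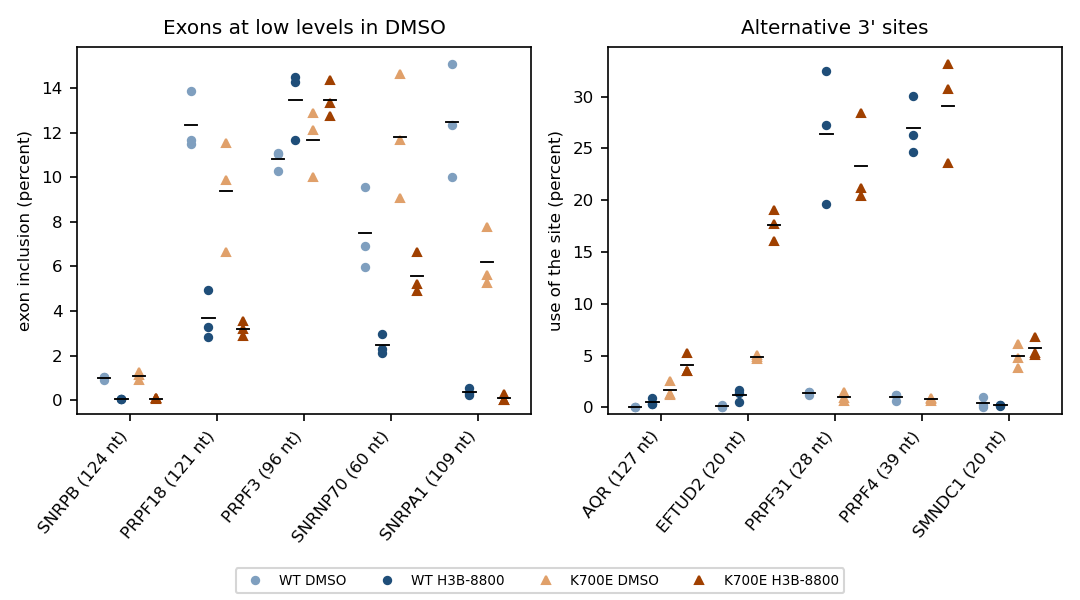
Level in every sample (percent) of 5 exons that are rare in DMSO (left) and of 5 alternative 3' sites (right), with a bar at the mean of 3 samples, circles for WT and triangles for K700E. The SNRPB, PRPF18, SNRNP70 and SNRPA1 exons are lower in H3B-8800 and the PRPF3 exon is not, while the EFTUD2 and SMNDC1 sites are high in the K700E samples.

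Spliced reads, the reads over annotated junctions of a gene on the RPM scale, were compared to describe how much spliced transcript each gene gave. In bulk RNA, fewer cells and less RNA per cell cannot be told apart, and skipping or retention itself lowers this sum. Of the 32 genes, 17 were higher and 9 lower in WT at an adjusted p under 0.05 (limma), where 18.5% and 40.8% of all 10182 genes were. In K700E, 14 were higher and 7 lower, against 16.2% and 35.8%, and these 14 and 7 were also among the 17 and 9. The median log2 change was 0.32 in WT and 0.23 in K700E, while the median of all genes was -0.28 and -0.22. Scaling by median of ratios moved the all-gene median by 0.31 and 0.26, and with it 21 genes were higher and 5 lower in WT, and 21 and 3 in K700E. Of all 10182 genes, 3176 were then higher and 2790 lower in WT, and 2889 and 2500 in K700E. With culture or clone as a replicate block, 20 members were higher and 10 lower in WT and 18 and 10 in K700E. Of all 10182 genes, the block gave 2841 higher and 5550 lower in WT, and 2734 and 5241 in K700E. The block added CRNKL1, PRPF31, PRPF8 and SNRNP200 in WT, and CRNKL1, PRPF19, PRPF31, SMNDC1, SNRNP200, SNRPA1 and SNRPG in K700E.

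The Sm and U1 genes had higher spliced reads. All 7 Sm genes passed in WT and 6 in K700E, with medians of 0.56 and 0.41, and SNRPG at 0.27 did not pass in K700E (limma, adjusted p = 0.115). All 3 U1 genes passed in both genotypes. SNRPB had 501, 476 and 485 RPM in WT DMSO and 851, 867 and 834 RPM in H3B-8800, and in K700E 417, 434 and 481 RPM and then 763, 716 and 822 RPM. No H3B-8800 sample overlapped a DMSO sample (log2 change 0.80, SE 0.07, adjusted p = 3.08e-06 in WT, by limma). SNRPD2 had 396, 375 and 362 RPM and then 521, 511 and 519 RPM in WT. The Sm genes have processed pseudogenes, from which junction reads were not separated.

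PRPF3, a U4/U6 protein, had the largest rise, with 179, 199 and 211 RPM in WT DMSO and 380, 450 and 504 RPM in H3B-8800. In K700E it went from 190, 165 and 184 RPM to 491, 351 and 377 RPM, a log2 change of 1.16 against 1.17 in WT. PRPF18 went from 55.5, 51.5 and 52.1 RPM to 104, 101 and 103 RPM in WT, with its exon 7 at under 35% inclusion in the same samples. CDC5L, SLU7 and SMNDC1 rose by 0.70, 0.69 and 0.64 on the log2 scale in WT. SLU7 had no called exon or intron.

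Lower reads were found in PRPF4, EFTUD2, PLRG1, XAB2, BCAS2, SNRNP40, AQR, SNRPA1 and PRPF19 in WT. PRPF4 had 223, 236 and 225 RPM in WT DMSO and 129, 141 and 144 RPM in H3B-8800, and in K700E 224, 235 and 229 RPM and then 136, 120 and 124 RPM. EFTUD2 had 485, 517 and 505 RPM and then 299, 337 and 308 RPM in WT. Both were apart without overlap in WT (limma, adjusted p = 5.75e-06 and 5.86e-05). PRPF8, PRPF6, SNRNP200, PRPF31, CRNKL1 and CDC40 did not pass in either genotype when fitted on RPM over all 4 groups without the block. Other settings moved several of them past the threshold. With median-of-ratios scaling PRPF8, PRPF31, CRNKL1 and CDC40 were higher in both genotypes, and SMNDC1, SNRPG and ZRSR2 also in K700E. In the fit on the WT groups alone CRNKL1 was higher and SNRNP200 lower. Under median-of-ratios scaling the log2 changes of PRPF6 and SNRNP200 in both genotypes, and of PRPF8, SNRPA1 and PRPF19 in K700E, changed sign. AQR and XAB2 in both genotypes, PRPF19 and SNRPA1 in WT, and EFTUD2 and PLRG1 in K700E no longer passed with that scaling.

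**Figure D5:**
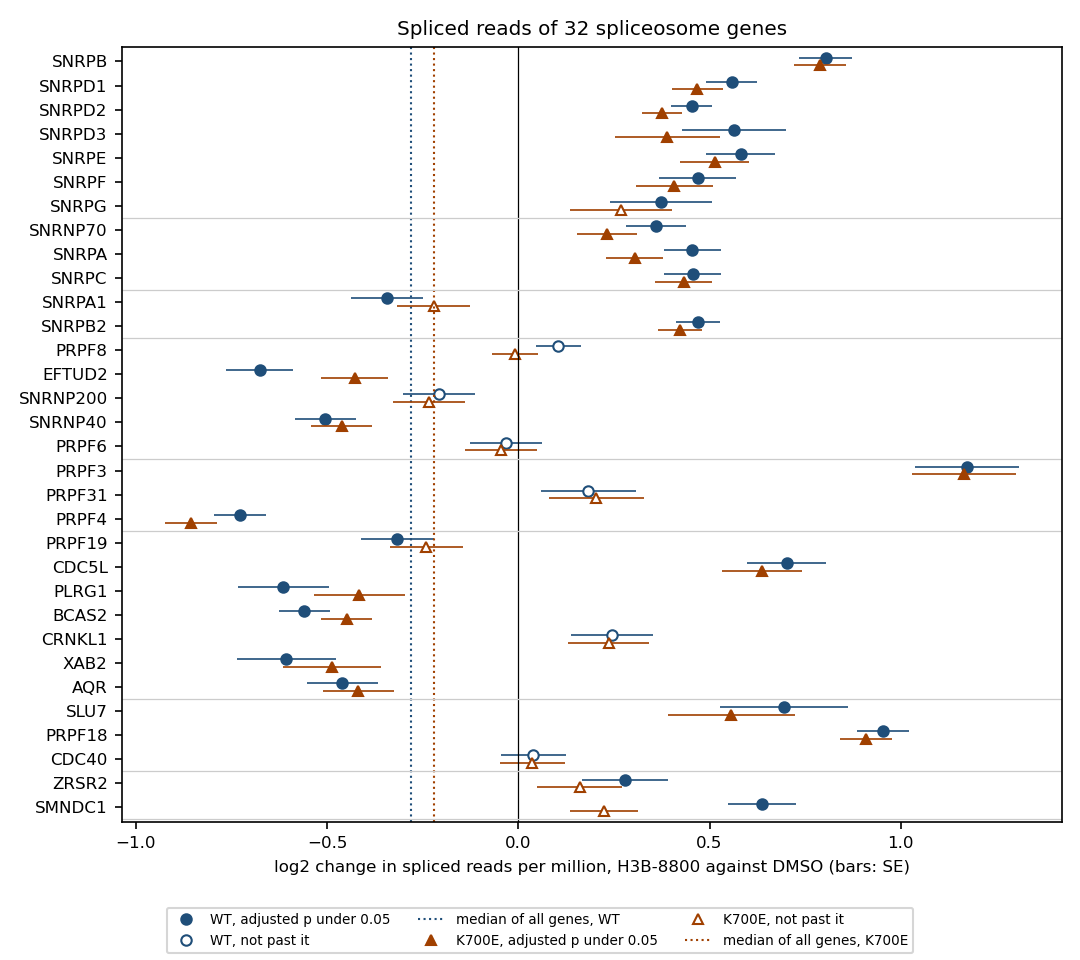
Log2 change in spliced reads on the RPM scale, H3B-8800 against DMSO, for the 32 genes in WT (circles) and K700E (triangles), with the standard error as a bar and dotted lines at the median of all genes. Filled symbols passed an adjusted p of 0.05, and the Sm and U1 genes lie to the right of 0 while most PRP19-related genes lie to the left.

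The K700E genotype by itself gave 0 called member events in DMSO, where 0.349% of all events were called. Of the member events, 10 had an adjusted p under 0.05 at any size (limma), against 2.03% of the table, and none of the 10 reached 10 points. In simulated data where few events were lowered, in WT H3B-8800 alone, the test of single events missed most changes except those of the largest size. Genotype differences and rises from near 0 were not simulated. A count of 0 does not show that levels were equal. The smallest p belonged to 2 alternative 3' sites. AQR used a site 127 nt away at 0%, 0% and 0% in WT DMSO and at 2.57%, 1.19% and 1.29% in K700E DMSO (limma, adjusted p = 0.0001). EFTUD2 used a site 20 nt away at 0%, 0.28% and 0% in WT and 5.05%, 4.65% and 4.85% in K700E (limma, adjusted p = 0.000311). The K700E samples were above the WT samples in both, with every WT value under 0.3%. SMNDC1, a Tudor-domain splicing factor, used a site 20 nt upstream at 0%, 0.21% and 0.99% in WT and 4.79%, 3.83% and 6.14% in K700E (limma, adjusted p = 0.00845). The bases added by the SMNDC1 and PRPF31 sites are shown, ending in the AG of the usual site in capitals, because the SMNDC1 site differed with genotype and the PRPF31 site with H3B-8800.
SMNDC1, 20 nt: tttttgtttttcttttttAG
PRPF31, 28 nt: attccacccccgttttccgttgctccAG
PRPF3 exon 14 and CDC5L exon 13 differed by -1.95 and -0.67 points, K700E minus WT in DMSO (limma, adjusted p = 0.00591 and 0.0192).

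By spliced reads, none of the members was higher in K700E DMSO and 2 were lower, against 2.91% and 1.95% of all genes. AQR had 219, 219 and 222 RPM in WT and 189, 163 and 153 RPM in K700E (log2 change -0.39, limma adjusted p = 0.0383). SNRPD2 had 396, 375 and 362 RPM in WT and 324, 328 and 322 RPM in K700E (-0.22, adjusted p = 0.0444). Neither pair of groups overlapped, but both p-values were near the threshold. In the fit on the DMSO groups alone they were 0.0824 and 0.118, and neither gene passed when any 1 WT sample, or K700E DMSO replicate 2 or 3, was left out. Without K700E DMSO replicate 1, 1 member was lower, AQR, and 1 was higher, PRPF6, with a log2 change of 0.42 (limma, adjusted p = 0.0183) against 0.30 with all samples (limma, adjusted p = 0.0895). With median-of-ratios scaling 3 members were lower, where 306 of all 10182 genes were. They were AQR, SNRPD2 and SNRPA1, the last at -0.44 (limma, adjusted p = 0.0247).

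The effect of H3B-8800 was not shown to differ between genotypes in any member event on the logit scale: 0 of 312 were called, where 0.00917% of the table was. Differences of at least 10 points were seen in 4 events. On the percentage-point scale 2 of them passed, SNRNP200 exon 35 with 12.04 points (limma, adjusted p = 0.0343) and the EFTUD2 20-nt site with 11.7 points (limma, adjusted p = 0.000452). In H3B-8800 the EFTUD2 site was used at 0.56%, 1.65% and 1.35% in WT and at 17.7%, 16.1% and 19.0% in K700E, so the samples were well apart. On the logit scale the difference of the EFTUD2 site was -1.43, of the opposite sign, with an adjusted p of 0.786 (limma), so its direction depends on the scale. SNRNP200 exon 35 had a logit difference of 0.18 (limma, adjusted p = 0.982). The SMNDC1 site stayed at 0.25%, 0.28% and 0.13% in WT and 5.25%, 6.78% and 5.09% in K700E under H3B-8800. PRPF6 had the smallest logit p, with effects on its 65-nt and 139-nt exons that differed between K700E and WT by 8.41 and 9.21 points (limma, adjusted p = 0.199 and 0.348). For spliced reads no member passed, against 0.0491% of genes. With the replicate block 2 of 32 did: EFTUD2, with a difference of 0.25 (limma, adjusted p = 0.0199), and SMNDC1, with -0.41 (limma, adjusted p = 0.0309). In that fit 616 of all 10182 genes passed, so the share of the members was near that of the table.

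Other spliceosome genes outside the set were counted in the same way, as a description and not a test. For comparison, 32.0% of all tested events were called in WT. By spliced reads, 18.5% of all genes were higher and 40.8% lower in WT. Of 9 tested SF3B and SF3A genes, 6 had higher spliced reads in WT H3B-8800 and 1 lower, with 10 of 76 events called. Other tri-snRNP and LSm genes had 5 higher and 4 lower of 18, with 44 of 127 events called. Other PRP19-related and late-stage genes had 10 higher and 5 lower of 21, with 58 of 244 events, and the minor spliceosome 2 higher and 1 lower of 10, with 13 of 67 events.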

How the data were processed

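Stranded poly(A) libraries of 12 MEC1 samples were each run 3 times on the sequencer, per the labels' protocols. The submitters' processing notes name cutadapt 2.4 and the build hg38. Which tool called the events is not given in the sources used here. Per event, the authors deposited the inclusion level in percent and, beside it in a text column, its inclusion and exclusion reads. The 36 columns of single runs were not used.

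Tested events had at least 20 reads in all 12 samples (313032 events), a mean level of 1% to 99% (127814), for introns an authors' balance test with p under 0.05 in at most 6 samples (120616), and were not the first site of an alternative-site event (109093). The logit of the reads, with 0.5 added, was fitted over all 4 groups with limma 3.58.1 in R 4.3.3, with a mean trend, and adjusted by Benjamini-Hochberg over all events. Spliced reads were raw exon-exon junction reads of annotated introns, each once, as log2 RPM with 0.5 reads added, for genes averaging 50 reads or more. The fits were tested on simulated data in which few events changed, where changes of single events were mostly missed except at the largest size. Exons and introns are numbered on the principal transcript of GENCODE release 29. Sequences were read from transcripts of that release, since no genome was used.

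The named exons and introns are the most changed called one of each gene, up to 12 of a kind, then the exons, sites and genes with the smallest p in the other contrasts. The most changed ones were taken from called events in which the WT samples of the treatments did not overlap. This held for all 69 events called in WT. Members and lists were chosen with earlier results of these data known. The replicate numbers pair the treatments, because the labels give the same culture or clone in DMSO and H3B-8800. Deviations from the group means correlated by 0.0147 to 0.0695 in the same culture or clone and by -0.0462 to 0.0137 in others. These low values do not show that pairing can be ignored for spliced reads. The replicate block called 8391 of all 10182 genes in WT, and the main fit, which left pairing out, called 6042. For K700E the block called 7975 genes and the main fit 5294. The difference of the effect had 616 genes with the block and 5 in the main fit. Read numbers set the precision of a level and are given beside the shallow events.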

Additional observations from a re-analysis of the deposited data

How the results depend on the processing

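Member events called numbered 67 to 72 in WT and 61 to 82 in K700E when any 1 sample was left out, and 33 and 31 when at least 20 points were required. In K700E against WT in DMSO, and in the difference of the H3B-8800 effect, 0 events were called without any 1 sample. The difference gave 2 events when fitted on percentage points. With the replicate block, the counts of events were 69 in WT, 73 in K700E and 0 for the difference of the effect.

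Member genes called by spliced reads numbered 23 to 27 in WT and 19 to 22 in K700E with 1 sample left out. For K700E against WT in DMSO the count was 0 to 2, with 0 when any WT sample or K700E DMSO replicate 2 or 3 was left out. With K700E DMSO replicate 1 left out it was 2, with PRPF6 higher and AQR lower. It was 3 with median-of-ratios scaling (AQR, SNRPA1 and SNRPD2 lower), 1 with a minimum mean of 1 read, 1 with the median over introns, 0 in the fit on its own groups alone and 0 without both WT replicate 3 samples, an alternative chosen after seeing the data. The difference of the effect had 2 genes with the replicate block, where 616 of all 10182 genes passed, and 0 with any 1 sample left out.

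The sign changed only in comparisons that had not passed the test. Under median-of-ratios scaling the log2 changes became 0.28 (PRPF6) and 0.11 (SNRNP200) in WT, and 0.21 (PRPF6), 0.25 (PRPF8, past the threshold with that sign), 0.025 (SNRNP200), 0.037 (SNRPA1) and 0.017 (PRPF19) in K700E. With 1 sample left out, the log2 changes ranged from -0.071 to 0.016 for PRPF6 in WT, -0.161 to 0.022 for PRPF6 and -0.053 to 0.019 for PRPF8 in K700E, and -0.016 to 0.086 in WT and -0.015 to 0.091 in K700E for CDC40. The 41-nt SNRPE exon ranged from -3.30 to 1.90 points in WT. With the median over introns PRPF8 gave 0.0053 in K700E and CDC40 -0.025 in WT, and CDC40 gave -0.0070 in WT without both WT replicate 3 samples. The cause was not tested.

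Spliced reads count annotated junctions and are no measure of total expression. Genes and events with few reads, such as XAB2 intron 18, are imprecise, and junction reads of pseudogenes were not separated.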
